A study of Mus musculus with 15 samples.

Results

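Genes that read out or carry out canonical Wnt signalling were followed through the growth, fusion and later differentiation of the mouse secondary palate. They were chosen by name as 6 widely used transcriptional targets and feedback regulators of the pathway (Axin2, Nkd1, Nkd2, Notum, Apcdd1 and Sp5) and the 4 DNA-binding factors of the TCF/LEF family (Lef1, Tcf7, Tcf7l1 and Tcf7l2), so they make up 10 of the 54232 genes in the count table. RNA was sequenced in bulk from palatal shelves of wild-type (WT) mice at embryonic days E13.5, E14.5, E15.5 and E16.5 and at birth (P0). Each of the 5 stages had 3 libraries, and each library held the secondary palates of 3 embryos pooled, so that differences between single embryos are averaged. No strain, sex, mutant or treatment was used to form the groups. Stage is the only factor by which the labels used here separate them, and other differences between the stages are not excluded. The labels do not say whether the pools of a stage came from separate litters, so p-values measure only the spread between these 15 libraries.

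In canonical Wnt signalling, a secreted Wnt protein engages a Frizzled receptor together with Lrp5 or Lrp6, which stops the Axin, Apc and Gsk3 complex from marking beta-catenin for degradation. Beta-catenin then enters the nucleus and binds TCF/LEF proteins at DNA, turning genes on where co-repressors of the Tle family had kept them off. Many targets feed back on the pathway: Axin2 is a scaffold of the degradation complex, Nkd1 and Nkd2 bind Dishevelled, Notum removes the lipid that Wnt proteins need for binding, and Apcdd1 is a membrane inhibitor of Wnt. In the palate, Wnt signalling acts in the epithelium and mesenchyme of the growing shelves, and elsewhere in the head it is a known input to bone formation. The members of the TCF/LEF family differ in habit: Lef1 and Tcf7 are mostly known as activators and are themselves Wnt targets, Tcf7l1 is mostly known as a repressor, and Tcf7l2 can do either.

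The DNA letters that TCF/LEF proteins recognise were looked for just upstream of the members' transcription starts, because they are the family's own binding sequence. The core searched was CTTTGA on either strand (TCAAAG when read on the other strand; the sequences do not overlap), in windows of the 250 bases before each annotated start (sequences from RefSeq, build GRCm38.p6). There were 13 such windows for 8 of the 10 members; Notum and Apcdd1 were not matched. Only 2 windows held a match, the single window of Sp5 and 1 of the 4 windows of Lef1, each with 2 matches. Among all 32817 windows of the same length, 13.8% held at least 1 match and 1.36% held 2 or more. These windows are shown for the 2 genes with matches and, as a window without a match, for Axin2, each 5′ to 3′ on the plus strand, which is the strand of all 3 genes, with matches in capitals.
Sp5, chr2:70474673-70474922: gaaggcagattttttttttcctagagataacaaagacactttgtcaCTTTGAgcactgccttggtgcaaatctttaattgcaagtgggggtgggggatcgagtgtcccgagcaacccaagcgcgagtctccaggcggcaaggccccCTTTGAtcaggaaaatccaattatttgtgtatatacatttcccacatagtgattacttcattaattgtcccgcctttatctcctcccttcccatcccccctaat
Lef1, chr3:131156044-131156293: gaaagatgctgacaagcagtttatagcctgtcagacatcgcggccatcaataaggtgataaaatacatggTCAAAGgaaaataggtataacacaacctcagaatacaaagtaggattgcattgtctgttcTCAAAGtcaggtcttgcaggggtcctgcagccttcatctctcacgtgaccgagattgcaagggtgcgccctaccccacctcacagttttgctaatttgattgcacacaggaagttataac
Axin2, chr11:108920099-108920348: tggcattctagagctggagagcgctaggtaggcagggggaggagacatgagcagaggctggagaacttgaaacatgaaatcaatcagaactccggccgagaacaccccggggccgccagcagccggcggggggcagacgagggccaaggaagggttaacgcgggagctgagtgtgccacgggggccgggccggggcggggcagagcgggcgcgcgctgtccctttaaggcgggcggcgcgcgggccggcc
The genes themselves span chr2:70474923-70477729 (Sp5), chr3:131110471-131224356 (Lef1) and chr11:108920349-108950783 (Axin2) in build GRCm38. The matches began at positions -204 and -104 from the start of Sp5, a zinc-finger factor that is a direct Wnt target. Those of Lef1 began at positions -180 and -120 from an annotated start that lies inside the gene, downstream of its first start. A match is a description of the letters, and the absence of one in these windows says nothing about sites elsewhere.

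Depth was high for all 15 libraries, with 21470759 to 69019565 counted fragments. Levels are given in CPM, counts-per-million of the TMM-adjusted library total; 3 counts correspond to 0.0435 to 0.140 CPM, and 9 of the 10 members stood well above that in all libraries. Sp5 was the scarcest, with 6 to 310 counts per library. The labelled tissue was checked by summed marker levels: 8 palate mesenchyme markers summed to between 347 and 1327 CPM and 8 epithelial markers to between 267 and 2914 CPM. Other tissues were present as well. Skeletal muscle markers summed to between 201 and 368 CPM at E13.5 and to between 4649 and 26210 CPM at P0, and 6 of 8 were higher at P0 (edgeR). Epithelial markers were likewise higher for 6 of 8, and brain neuron markers lower for 2 of 8. Over all tested genes, 29.8% were higher and 26.8% lower at P0, so the count for brain neuron markers was near that share. Brain neuron markers were highest in E14.5 replicate 1 (5005 CPM), and skeletal muscle markers were highest in E16.5 replicate 1 (27000 CPM). Choroid plexus markers ranged from 31.1 to 1409 CPM within E14.5, highest in replicate 1. Pituitary markers ranged from 2.45 to 281.5 CPM within E16.5, highest in replicate 1, and from 4.13 to 332 CPM within P0, highest in replicate 2. Results were also computed without E14.5 replicate 1 and E16.5 replicate 1 together, and without each library in turn. In bulk tissue, fewer cells of a type and less RNA per cell cannot be told apart.

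**Figure D1:**
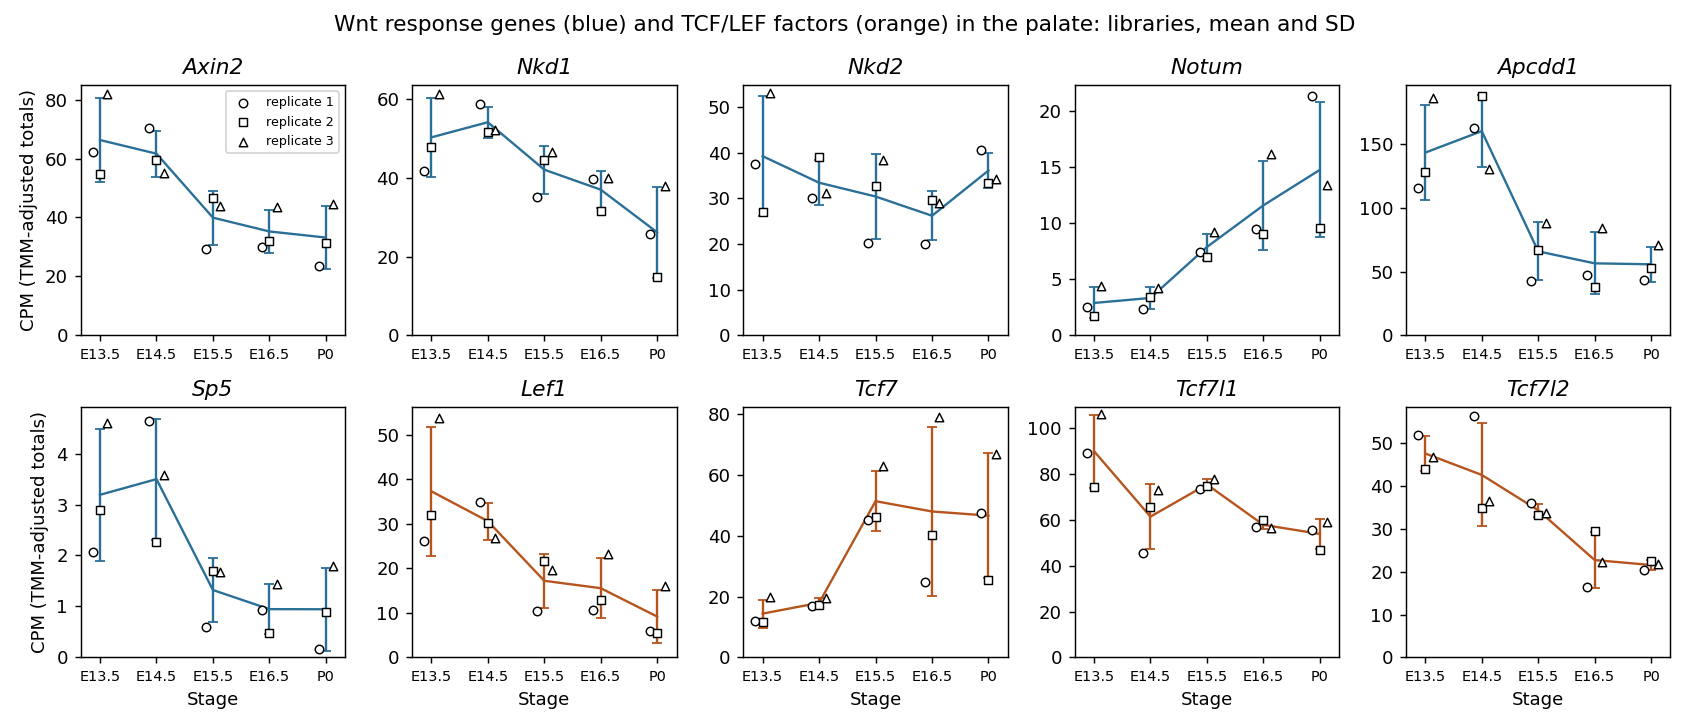
Level of each of the 10 genes (CPM on TMM-adjusted library totals, linear axes from 0) by stage; each symbol is 1 library, lines join stage means and bars are SD (n = 3). Notum and Tcf7 sit lower at E13.5 and E14.5 than at all later stages, while Axin2, Apcdd1, Sp5 and Lef1 sit higher there.

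Across the 5 stages, 9 of the 10 members changed (edgeR quasi-likelihood F test, adjusted p under 0.05), against a background of 59.1% of the 22151 genes tested. Between the ends of the course, P0 against E13.5, 7 members were lower and 2 higher, where 56.6% of all tested genes were called, 26.8% lower and 29.8% higher. The members' median log2 fold change was -0.97, beside 0.03 for all tested genes. In CPM, 9 of the 10 did not overlap between the 3 libraries of E13.5 and the 3 of P0, and the same was true of 59.1% of all tested genes. The most even gene was Nkd2, for which the test over 5 stages did not pass (adjusted p = 0.338).

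Axin2, the target most often used as a readout of the pathway, fell between E13.5 and P0. Its level was 62.1, 54.7 and 82 CPM in the E13.5 libraries and 70.3, 59.4 and 55.3 CPM at E14.5. The E15.5 libraries had 29.5, 46.6 and 43.8 CPM, the E16.5 libraries 30.1, 32.0 and 43.7 CPM and the P0 libraries 23.6, 31.4 and 44.6 CPM. All 6 libraries of the first 2 stages were above all 9 of the later stages, the lowest of the former at 54.7 CPM and the highest of the latter at 46.6 CPM. The mean went from 66.3 ± 14.1 CPM (SD, n = 3) at E13.5 to 33.2 ± 10.6 CPM at P0, a log2 fold change of -0.999 ± 0.25 (SE; edgeR adjusted p = 0.00491). The step from E14.5 to E15.5 was -0.63 ± 0.25 on the log2 scale and did not pass the adjusted test (edgeR adjusted p = 0.0821). Of 13 alternative fits, 11 did not pass either, among them all 6 that left out a library of those stages (edgeR adjusted p from 0.0849 to 0.239). It passed with the replicate number as a block (edgeR adjusted p = 0.0442), though those numbers were not taken to pair the samples. It also passed when only the 6 libraries of the 2 stages were fitted (edgeR adjusted p = 0.0445).

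Apcdd1, the membrane inhibitor, was the most abundant member per unit of length by its mean at both ends of the course and the only one whose fall between neighbouring stages passed the edgeR test. Its level was 115.7, 128.4 and 186.2 CPM at E13.5 and 162.6, 187.5 and 130.8 CPM at E14.5. It was 42.8, 66.9 and 88.2 CPM in the E15.5 libraries, 47.3, 38.3 and 84.0 CPM in those of E16.5, and 43.6, 53.0 and 70.9 CPM in those of P0. All 6 libraries of E13.5 and E14.5 were above all 9 later ones. The fall was -1.28 ± 0.33 (log2, SE) from E14.5 to E15.5 (edgeR adjusted p = 0.0149) and -1.36 ± 0.33 from E13.5 to P0 (edgeR adjusted p = 0.00379). When replicate 2 of either stage was omitted, the E14.5 to E15.5 call was lost for Apcdd1 (adjusted p = 0.0528 and 0.0505).

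Notum, the Wnt deacylase, went the other way from most response genes. Its level was 2.52, 1.73 and 4.43 CPM at E13.5 and 2.35, 3.42 and 4.26 CPM at E14.5. The E15.5 libraries had 7.48, 6.99 and 9.18 CPM, the E16.5 libraries 9.52, 9.07 and 16.2 CPM and the P0 libraries 21.4, 9.54 and 13.4 CPM. Each library from E15.5 on was above each earlier one. Notum rose by 1.24 ± 0.39 (log2, SE) from E14.5 to E15.5 (edgeR adjusted p = 0.0342) and by 2.35 ± 0.40 from E13.5 to P0 (edgeR adjusted p = 0.000381), where the fitted fold was 5.11. The E14.5 to E15.5 call did not hold in 5 of the 6 fits that left out a library of those stages: omitting replicate 1 or 2 of E14.5 gave Notum an adjusted p of 0.146 or 0.0908, and omitting replicate 1, 2 or 3 of E15.5 gave 0.0555, 0.0658 or 0.107. The ratio of Notum to Axin2, compared per length in transcripts-per-million (TPM), was 0.0724 to 0.123 at E13.5 and 0.688 to 2.07 at P0. Each gene alone already separated these 2 stages, in opposite directions, so the ratio could not overlap and adds no further result.

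Sp5 and Nkd1 were lower at P0, with calls that did not hold in some other fits. Sp5 ranged from 2.08 to 4.64 CPM over the 6 libraries of E13.5 and E14.5 and from 0.166 to 1.79 CPM over the later 9, without overlap. Its change from E13.5 to P0 was -1.79 ± 0.68 (log2, SE; edgeR adjusted p = 0.0402). For Sp5, that call was lost without E13.5 replicate 2 (adjusted p = 0.0632), E13.5 replicate 3 (0.119), P0 replicate 1 (0.106) or P0 replicate 2 (0.102), when only those 6 libraries were fitted (0.097), with upper-quartile scaling (0.0522), and without E14.5 replicate 1 and E16.5 replicate 1 together (0.0623). Nkd1 was 41.9, 47.8 and 61.3 CPM at E13.5 and 25.7, 14.8 and 38.1 CPM at P0, a change of -0.94 ± 0.27 (log2, SE; edgeR adjusted p = 0.00958). The call for Nkd1 was lost when only those 6 libraries were fitted (adjusted p = 0.068). Over the 5 stages, Nkd1 (edgeR adjusted p = 0.0301) was not called when replicate 1 or 2 of E14.5 (0.0613 and 0.0505) or replicate 1 or 2 of P0 (0.0973 and 0.0513) was omitted. The call over 5 stages for Sp5 (edgeR adjusted p = 0.0419) was lost in 9 of the 15 fits without a library, with adjusted p from 0.0536 to 0.0931: replicates 2 and 3 of E13.5, 1 and 3 of E14.5, 2 and 3 of E15.5, 1 and 2 of E16.5, and 2 of P0. Nkd2, the other Dishevelled-binding antagonist, had 37.4, 27.1 and 53.2 CPM at E13.5 and 40.6, 33.4 and 34.3 CPM at P0. The Nkd2 groups overlapped, and its change was -0.12 ± 0.27 (log2, SE; edgeR adjusted p = 0.718).

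Among the TCF/LEF factors, Lef1 and Tcf7, which are close relatives, changed in opposite directions. Lef1 was 26.2, 32.1 and 53.8 CPM at E13.5 and 35.0, 30.1 and 26.7 CPM at E14.5. It was 10.4, 21.8 and 19.6 CPM in the E15.5 libraries, 10.6, 12.8 and 23.3 CPM in those of E16.5, and 6.05, 5.40 and 16.1 CPM in those of P0. All later libraries were below all earlier ones, and P0 replicate 3 stood above the other P0 libraries. The fall from E13.5 to P0 was -2.03 ± 0.46 (log2, SE; edgeR adjusted p = 0.00259), to 0.245 of the E13.5 level. From E14.5 to E15.5, Lef1 went by -0.83 ± 0.45, and this did not pass (edgeR adjusted p = 0.183).

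Tcf7 was 11.9, 11.6 and 19.7 CPM at E13.5 and 16.98, 17.2 and 19.7 CPM at E14.5. The E15.5 libraries had 45.3, 46.0 and 62.9 CPM, the E16.5 libraries 24.7, 40.4 and 78.9 CPM and the P0 libraries 47.4, 25.6 and 66.9 CPM. In CPM, every library from E15.5 on was above every earlier one, and at E16.5 the highest was 3.19 times the lowest. This separation depended on the scaling and did not hold in transcripts-per-million. In that unit E16.5 replicate 1 (24.3) and P0 replicate 2 (25.5) lay below replicate 3 of E13.5 (27.0) and of E14.5 (27.1). Tcf7 rose by 1.52 ± 0.41 (log2, SE) from E14.5 to E15.5 (edgeR adjusted p = 0.0181) and by 1.69 ± 0.41 from E13.5 to P0 (edgeR adjusted p = 0.00378). The first of these calls was lost for Tcf7 when replicate 1 or 2 of E14.5 (adjusted p = 0.0764 and 0.0631) or replicate 3 of E15.5 (0.0665) was omitted. Counts per gene do not separate the transcript forms of Lef1 or Tcf7, some of which lack the region that binds beta-catenin.

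Tcf7l1 and Tcf7l2 were both lower at P0 than at E13.5. Tcf7l1 was 89.4, 74.4 and 106.2 CPM at E13.5 and 55.6, 46.8 and 59.2 CPM at P0, without overlap, a change of -0.74 ± 0.17 (log2, SE; edgeR adjusted p = 0.00259). The stages between were not in order, with means of 90.0, 61.4 and 75.4 CPM at E13.5, E14.5 and E15.5. E14.5 did not overlap with either neighbour, but its highest library (73.1 CPM) was close to the lowest of E13.5 (74.4 CPM) and of E15.5 (73.6 CPM). Neither step passed (edgeR adjusted p = 0.176 and 0.204), and 29.2% and 51.3% of all tested genes did not overlap at these steps. The lowest library for Tcf7l1 was E14.5 replicate 1 (45.7 CPM), the library with the highest brain neuron markers, and the part of those cells in that value was not tested. Tcf7l2 was 51.9, 44.0 and 46.7 CPM at E13.5 and 20.3, 22.5 and 21.9 CPM at P0, with little spread inside either stage. Its change was -1.14 ± 0.21 (log2, SE; edgeR adjusted p = 0.000653), and its highest library was again E14.5 replicate 1 (56.4 CPM).

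**Figure D2:**
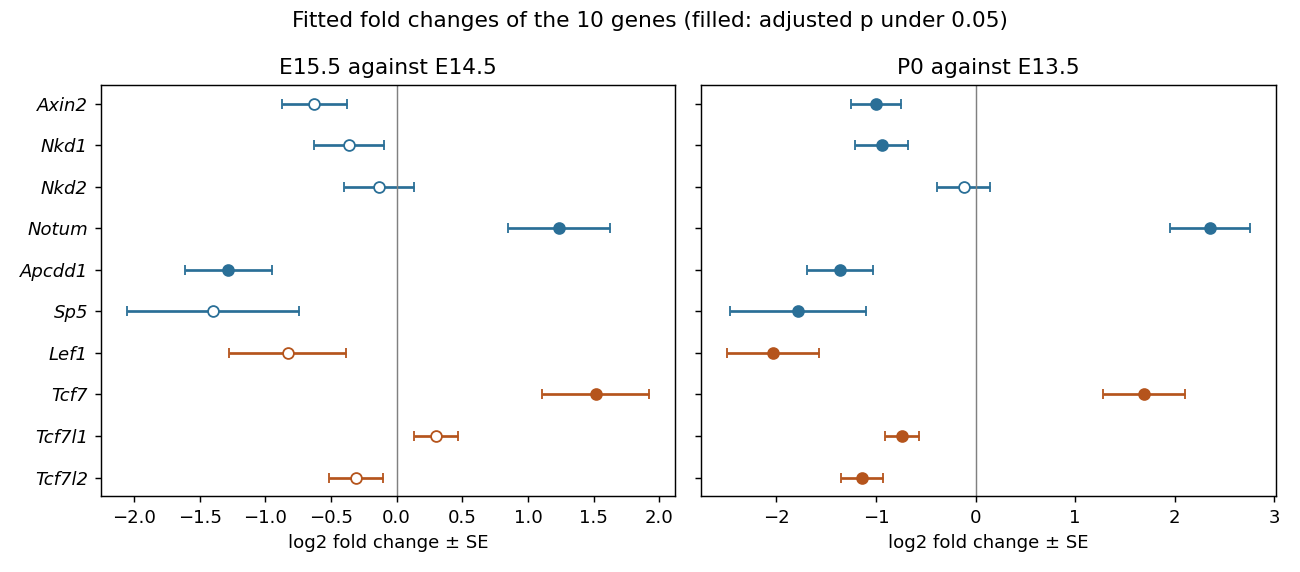
Fitted log2 fold change (points) with SE (bars) of the 10 genes from E14.5 to E15.5 (left) and from E13.5 to P0 (right); filled points passed the edgeR test at an adjusted p under 0.05. Filled points are 3 on the left (Notum, Tcf7 and Apcdd1) and 9 on the right, all but Nkd2.

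The steps between neighbouring stages held few calls outside E14.5 to E15.5. At that step edgeR called 3 members, Notum and Tcf7 higher and Apcdd1 lower, against 26.1% of all tested genes (12.7% higher, 13.4% lower), and 8 of 10 members did not overlap, against 51.3% of all tested genes. No member passed from E13.5 to E14.5 by edgeR, where 0.00903% of tested genes did. Of the members, 1, Tcf7l1, had an unadjusted p under 0.05, as did 3538 of the 22151 genes tested. DESeq2 called that gene alone among the members (log2 fold change -0.57, adjusted p = 0.0392). The share of all genes that DESeq2 called is not given here, and the edgeR share is not a background for that call. None passed from E15.5 to E16.5 by edgeR (background 1.41%), where 2 had an unadjusted p under 0.05, as did 4830 of the 22151 genes, and DESeq2 called 0. None passed from E16.5 to P0 by edgeR (background 0.352%), where 0 had an unadjusted p under 0.05, as did 2602 of the 22151 genes, and DESeq2 called 0. The 6 libraries of the first 2 stages were also set against the 9 later ones, a division made after the values were seen. In CPM, 6 members did not overlap, against 25.5% of all tested genes (13.2% higher, 12.3% lower). Notum and Tcf7 were higher, and Axin2, Apcdd1, Sp5 and Lef1 were lower. Tcf7 overlapped when compared in transcripts-per-million.

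The make-up of the TCF/LEF transcripts, compared per length as shares of their summed TPM, moved from Tcf7l1 towards Tcf7. At E13.5 Tcf7l1 held 60.3% ± 2.28 (SD, n = 3) of the sum, Tcf7l2 14.6% ± 2.60, Tcf7 14.2% ± 1.96 and Lef1 10.97% ± 2.56. At P0 Tcf7 held 49.1% ± 8.96, Tcf7l1 40.6% ± 7.18, Tcf7l2 7.50% ± 2.51 and Lef1 2.84% ± 1.11. No share overlapped between those stages. The Tcf7 share could not overlap, because in CPM Tcf7 alone was already higher and the other factors lower without overlap. The 4 shares are parts of 1 sum, so they are not separate results. The difference in Tcf7 was 34.9 percentage points and that in Tcf7l1 was -19.7 points; the exact two-sided permutation test gave p = 0.1 for each of the 4 shares (adjusted p = 0.1), the smallest that 3 libraries against 3 can give. When counts were not divided by gene length the differences were 26.8 points for Tcf7, -5.63 for Tcf7l1 and -12.8 for Lef1. The ratio of Tcf7 to Lef1 in TPM was 1.21 to 1.52 at E13.5 and 1.62 to 2.46 at E14.5. The E15.5 libraries had 7.09 to 14.6, the E16.5 libraries 7.81 to 11.4 and the P0 libraries 13.9 to 26.3. The first 2 stages could not overlap with the last 3 in this ratio, because each gene alone already separated them in CPM, in opposite directions.

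**Figure D3:**
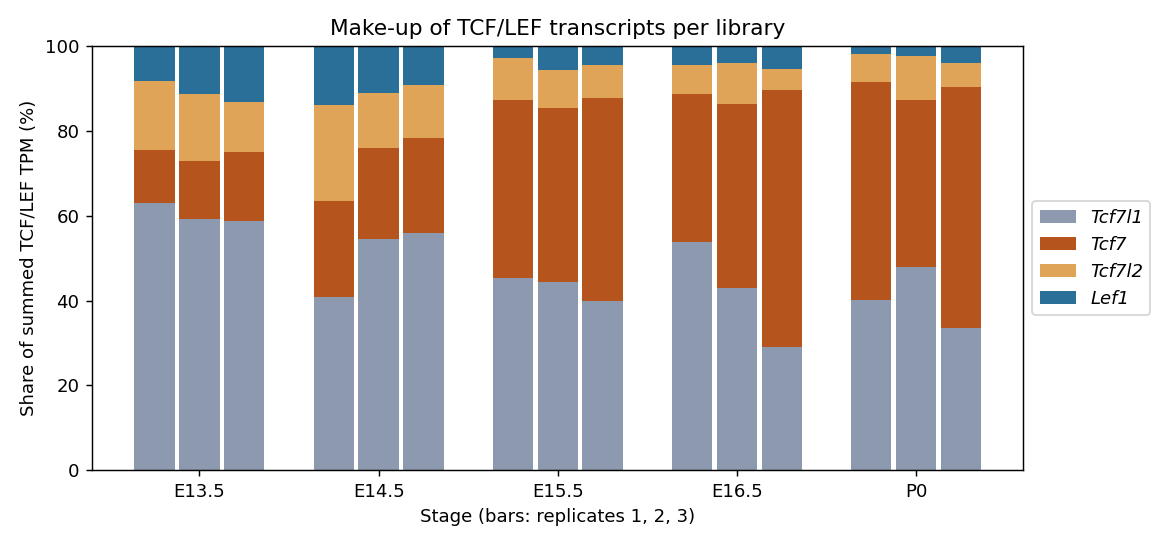
Share of Tcf7l1, Tcf7, Tcf7l2 and Lef1 in their summed TPM (percent, axis from 0 to 100), 1 bar per library in replicate order within each stage. The Tcf7 segment widens from a mean of 14.2% at E13.5 to 49.1% at P0 while the Lef1 segment narrows from 10.97% to 2.84%.

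Ordered by mean level per length, the members were led by Apcdd1 at both ends of the course, but at P0 Tcf7 was above it in 2 of 3 libraries (47.0 against 40.5 and 82.3 against 81.8 TPM in replicates 1 and 3, and 25.5 against 49.4 TPM in replicate 2). Mean levels at E13.5 were 191 TPM for Apcdd1, 85.9 for Tcf7l1, 45.0 for Axin2 and 41.2 for Nkd1. Below them came Nkd2 at 30.4 TPM, Tcf7 and Tcf7l2 both at 20.5, Lef1 at 15.8, Sp5 at 5.64 and Notum at 4.47. Several neighbours in this order lay within their spread, such as Axin2 (± 8.18 TPM, SD) with Nkd1 (± 6.37) and Sp5 (± 2.04) with Notum (± 1.98). At P0 the mean of Tcf7 was 51.6 ± 28.7 TPM and that of Apcdd1 57.2 ± 21.8, which overlap, while Sp5 (1.35 ± 1.29) and Lef1 (3.10 ± 2.44) were lowest and overlapped.

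At E13.5, E15.5, E16.5 and P0, most members were highest in the same library. Replicate 3 was the highest for 9 of 10 members at E13.5, for 6 at E15.5, for 7 at both E16.5 and P0, and for 3 at E14.5. At E14.5, replicate 1 was the highest for 5 members and the lowest for 4. The share of all tested genes that were highest in replicate 3 was not computed, so these counts are not shown to be particular to the members. Replicate numbers of different stages are not linked by the labels. Replicate 3 also had the highest summed palate mesenchyme, epithelial and cell cycle markers of its stage at each of the 5 stages. For skeletal muscle markers it was the highest at E13.5 (368 CPM, with 201 and 240 CPM in the others) and E14.5 (962 CPM) and the lowest at E15.5 (1551 CPM). At E16.5, it had the least skeletal muscle marker signal of its stage (9332 CPM, with 27000 and 13250 CPM in the others), and so it did at P0 (4649 CPM, with 21870 and 26210 CPM). The part of these tissues in the members' spread was not tested.

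Between the ends of the course, palate mesenchyme and proliferation markers were lower, as were 7 of the members. Summed over 8 genes, palate mesenchyme markers went from 785 to 1327 CPM at E13.5 to 380 to 500 CPM at P0, with 6 of 8 lower (edgeR) and a median log2 fold change of -1.35. Cell cycle genes went from 1659 to 1860 CPM at E13.5 to 584 to 978 CPM at P0, with 9 of 10 lower. Over all tested genes, 26.8% were lower and 29.8% higher at P0. From E14.5 to E15.5, the step at which Axin2, Apcdd1, Sp5 and Lef1 separated, the mean sums were 745 and 730 CPM for palate mesenchyme and 1105 and 1204 CPM for the cell cycle. At that step the mean sums fell from 3537 to 1155 CPM for brain neuron and from 738 to 78.2 CPM for choroid plexus markers, while the epithelial sum rose from 475 to 1164 CPM. Within E14.5, Axin2, Sp5 and Lef1 were highest in replicate 1, which had the most brain neuron and choroid plexus markers, and Apcdd1 in replicate 2. The part of those tissues in the falls was not tested. Of the osteoblast markers, 7 of 8 were higher at P0, as were Notum and Tcf7, and their sum stepped from between 1023 and 2205 CPM at E14.5 to between 14170 and 16410 CPM at E15.5. Their part in the changes of the members was not tested. Lef1 and Tcf7 are also known from T cells, whose 8 markers summed to between 7.86 and 9.49 CPM at E13.5 and between 6.79 and 8.18 CPM at P0. Of these, 3 were higher at P0 (edgeR; Cd247 from a mean of 0.664 to 2.93 CPM, Cd4 from 0.222 to 1.27 CPM and Cd2 from 0.0524 to 0.548 CPM) and Lck was lower (7.80 to 2.69 CPM). Cd3d, Cd3e, Cd3g and Cd8a reached at most 0.0553, 0.151, 0.174 and 0.0734 CPM in any library. The part of T cells in the levels of Lef1 and Tcf7 was not tested.

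**Figure D4:**
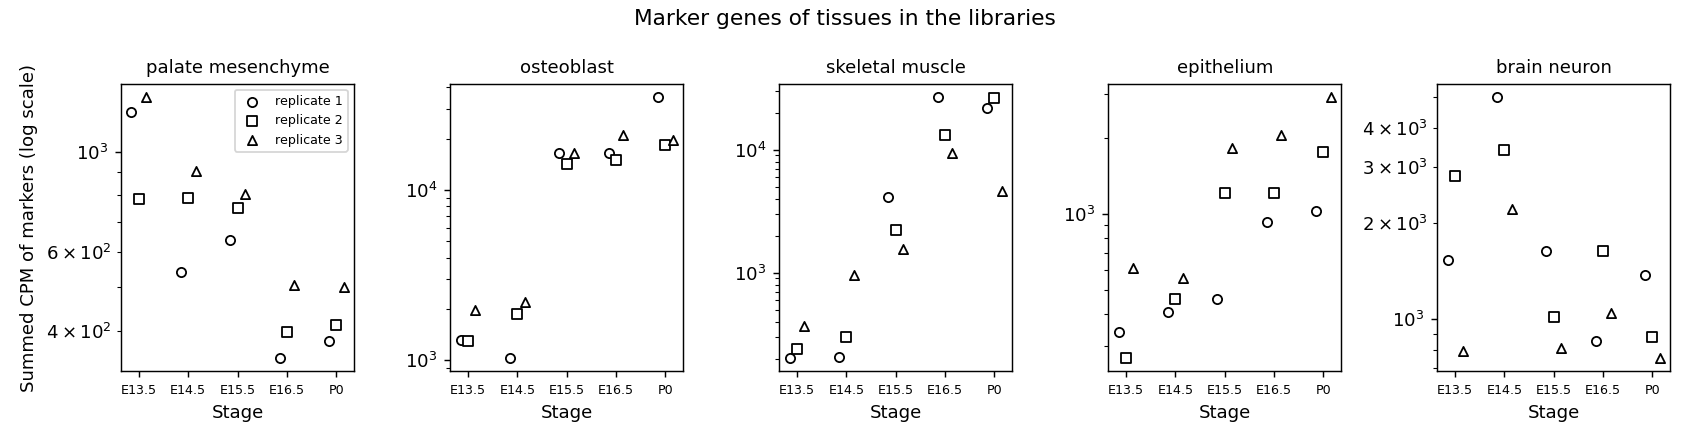
Summed CPM of marker genes (log axis) for 5 tissues by stage; each symbol is 1 library. Osteoblast markers step up between E14.5 and E15.5, skeletal muscle markers reach 27000 CPM at E16.5, and brain neuron markers are highest in E14.5 replicate 1.

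For the 4 members whose stage means differed most (Notum, Sp5, Lef1 and Tcf7), the genes nearest in pattern were found among 16518 genes with a mean of at least 1 CPM, by the root mean square difference of log2 CPM centred on each gene's mean over the 15 libraries. For Tcf7 they were Ihh (0.292), Itgbl1 (0.312) and Sp7 (0.329); Ihh encodes Indian hedgehog and Sp7 is a transcription factor of osteoblasts. For Notum they were Tgfb1 (0.224), Col13a1 (0.243) and Ncf4 (0.244). For Lef1 they were Tmem132c (0.324), Wnt5a (0.343), a ligand known mainly for non-canonical signalling, and Zfp184 (0.353). For Sp5 the nearest were more distant, Gm20554 (0.515), Ttpa (0.544) and Igsf9 (0.567). Between members, Notum and Tcf7 lay 0.506 apart, and Axin2 lay 0.347 from Apcdd1 and 0.343 from Nkd1.

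The rest of the pathway was described by 5 lists, again for P0 against E13.5 with the same fit; over all tested genes, 26.8% were lower and 29.8% higher. Of 17 cytoplasmic components, 14 were lower and 0 higher, with a median log2 fold change of -0.73. Tnks, a poly-ADP-ribosylase that destabilises Axin, fell from 242.1, 241.5 and 185.1 CPM to 63.1, 105.1 and 82.6 CPM (log2 fold change -1.42 ± 0.27, edgeR adjusted p = 0.000848). Apc2, a relative of Apc best known from the nervous system, went from 236.6, 462.8 and 82.5 CPM to 94.7, 58.4 and 55.0 CPM, and its groups overlapped even though the test passed (-1.91 ± 0.60, edgeR adjusted p = 0.0161). The order of the 3 E13.5 libraries for Apc2 was that of their brain neuron markers (1538, 2810 and 791 CPM), whose part was not tested.

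Of 14 nuclear cofactors, 11 were lower and 1 higher, with a median of -0.77. Bcl9, which links beta-catenin to Pygo proteins, fell from 216.5, 199.6 and 177.3 CPM to 55.6, 76.8 and 65.9 CPM (log2 fold change -1.58 ± 0.18, edgeR adjusted p = 2.06e-05). Pygo1, its partner, fell from 86.0, 83.7 and 79.5 CPM to 23.3, 30.3 and 43.9 CPM (-1.35 ± 0.26, edgeR adjusted p = 0.000845). Neither gene's groups overlapped. Of 12 receptor genes, 7 were lower and 0 higher, with a median of -0.67. The largest falls were in the Frizzled receptors Fzd3 and Fzd2. Fzd3 went from 129.1, 176.1 and 81.6 CPM to 22.1, 28.9 and 49.7 CPM (-1.94 ± 0.39, edgeR adjusted p = 0.00116), and Fzd2 from 201.3, 151.1 and 217.1 CPM to 63.0, 35.6 and 72.8 CPM (-1.73 ± 0.25, edgeR adjusted p = 0.000123). The E13.5 libraries of Fzd3 were also in the order of their brain neuron markers, and its mean was highest at E14.5 (169 CPM), as was theirs (3537 CPM). Tnks (279 CPM), Apc2 (546 CPM) and Pygo1 (106 CPM) likewise had their highest stage mean at E14.5. Bcl9 (198 CPM) and Fzd2 (190 CPM) had theirs at E13.5. The part of brain cells in these levels was not tested.

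The ligands and the other response genes were mixed. Of 19 ligand genes 18 passed the filter on low counts, and 3 were higher and 3 lower, with a median of 0.17. Wnt10a rose from 0.874, 1.10 and 2.79 CPM to 4.38, 9.67 and 10.01 CPM (log2 fold change 2.33 ± 0.52, edgeR adjusted p = 0.0023). Wnt9b, an epithelial ligand needed for normal closure of the lip, fell from 1.39, 2.51 and 4.92 CPM to 0.25, 0.335 and 0.958 CPM (-2.56 ± 0.66, edgeR adjusted p = 0.00571). The groups of both ligands were separate, and both genes were of low abundance. Of 16 further response genes, 5 were higher and 2 lower, with a median of 0.44, a share of higher calls close to that over all tested genes (29.8%).

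In that list the largest rise was in Ccn5, a secreted matricellular protein, which had 0.158, 0.141 and 0.193 CPM at E13.5 and 7.88, 4.21 and 6.66 CPM at P0 (log2 fold change 5.24 ± 0.46, edgeR adjusted p = 5.67e-06). Wif1, a secreted inhibitor that binds Wnt proteins, rose from 9.33, 9.40 and 21.1 CPM to 92.1, 47.1 and 145.9 CPM (2.84 ± 0.57, edgeR adjusted p = 0.00114). Dkk1 and Dkk4, secreted inhibitors in the same list named here after their values were seen, did not pass the test (edgeR adjusted p = 0.443 and 0.429). Wif1 was highest in P0 replicate 3, as were 7 of the 10 members.

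**Figure D5:**
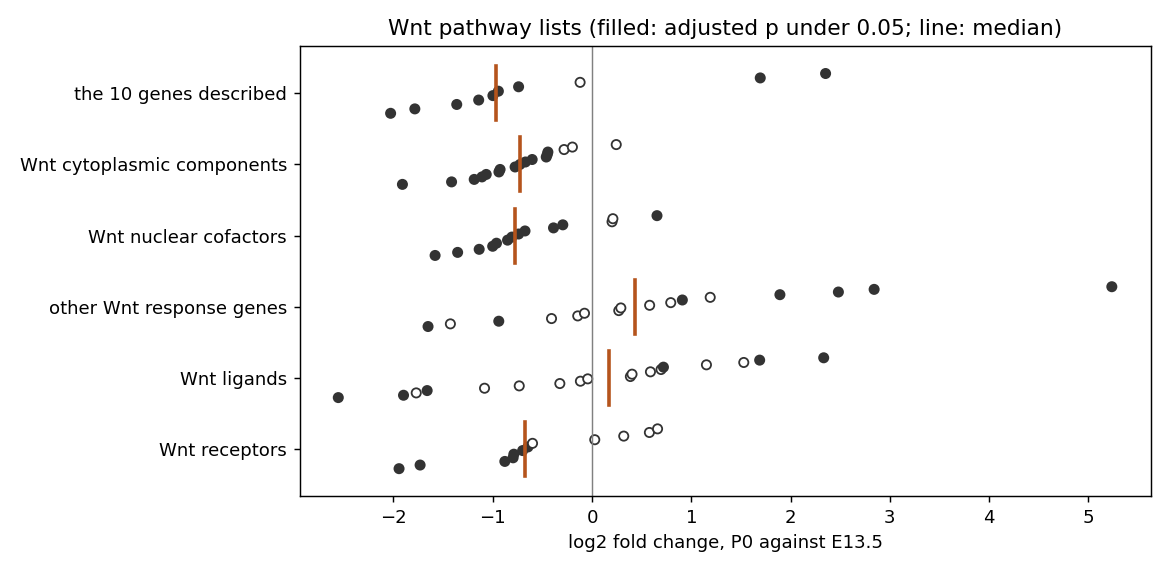
Log2 fold change from E13.5 to P0 of each tested gene in the 10 described genes and 5 Wnt pathway lists; filled points passed the edgeR test at an adjusted p under 0.05 and the line is the list's median. Cytoplasmic components, nuclear cofactors and receptors lie mostly below 0 (medians -0.73, -0.77 and -0.67), ligands and further response genes on both sides (medians 0.17 and 0.44).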

How the data were processed

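The deposited table holds raw fragment counts per gene, made by the authors with featureCounts 2.0.1 on paired, reverse-stranded alignments against GENCODE M18, per the file headers; antisense genes were thus counted separately. The input alignments were duplicate-marked, per the file headers. The gene length that TPM uses is the authors' other deposited column, in bases. The submitters' processing notes name cutadapt 3.4, FastQC 0.11.9, Bowtie2, HISAT2 2.2.1, SAMtools 1.12, Subread 2.0.1 and build mm10, without their roles. Symbols were matched for 54079 of 54232 gene IDs.

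Genes passing edgeR's filterByExpr (minimum count 10, 22151 genes) were fitted with TMM factors, 1 coefficient per stage over all 15 libraries, and quasi-likelihood tests (edgeR 4.0.16, R 4.3.3). Adjustment was by Benjamini-Hochberg over all tested genes. Fold changes are those of the fit at edgeR's default prior count. A prior count of 2 was used only for log2 CPM, from which ranges, nearest patterns and correlations between libraries were taken. CPM values use TMM-adjusted totals. On simulated counts for P0 against E13.5 (21696 genes), the fit called 25.4% of 2-fold, 74.6% of 4-fold and 89.4% of 8-fold changes and 0.0279% of unchanged genes. Only 67, 67 and 66 genes were given those changes and 21496 none, whereas 56.6% of genes were called in the data for that contrast. The cutoff of the adjustment depends on that number, so these rates describe the simulated setting only. Alternatives were DESeq2 1.42.0, other scalings, no filter, a replicate block, the 6 libraries of a contrast alone, each library left out and, chosen after seeing the data, E14.5 replicate 1 and E16.5 replicate 1 left out together. Members and lists were chosen with earlier results of these data known. Named genes were the 10 members, the 2 largest called changes per pathway list with a mean of at least 1 CPM, and the 3 nearest patterns of 4 members. Replicates of a stage differed by far more than counting noise (chi-square per degree of freedom 29.5 to 224.7), so none was counted as a repeat. Counting intervals and floors cover counting error only.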

Additional observations from a re-analysis of the deposited data

How the results depend on the processing

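The members called numbered 7 to 9 over the 5 stages and 8 to 9 for P0 against E13.5 when any single library was left out, and 0 to 3 for E15.5 against E14.5, where omitting replicate 1 or 2 of E14.5 left 1 or 0 calls and omitting replicate 2 or 3 of E15.5 left 1 each. It was also 1 without E14.5 replicate 1 and E16.5 replicate 1 together, when Apcdd1 and Notum were lost (adjusted p = 0.0652 and 0.134). DESeq2 called 1 member for E14.5 against E13.5, where edgeR called 0, and the DESeq2 share over all tested genes is not given here. The TCF/LEF share differences ranged over single omissions from -9.50 to -6.97 points for Lef1, 31 to 39.8 for Tcf7 and -23.4 to -16.2 for Tcf7l1; not divided by length they were -12.8, 26.8 and -5.63. Upper-quartile scaling moved the median of all genes from 0.03 to 0.161 (log2) at E15.5 against E14.5 and left 7 calls over the 5 stages. The fit with the replicate number as a block called 9 members over the 5 stages, 9 for P0 against E13.5, 4 for E15.5 against E14.5 (Axin2 added) and 0 for each other step. Same-numbered libraries of different stages correlated between -0.303 and 0.548 in 15 pairs, 4 of them over 0.1; these 4 were the replicate 3 pairs of the neighbouring stages (0.203 to 0.548). The replicate 2 pairs were all negative (-0.303 to -0.045). The labels do not say what a number shares, and for that reason the numbers were not taken to pair the samples.

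Of 860 values for single members under an alternative, 785 kept direction and call, 37 lost the call, 3 gained it and 35 changed sign. All 35 sign changes were of values that had not passed the test (their adjusted p at lowest 0.655). Under upper-quartile scaling they were 0 for Nkd2 (E15.5 against E14.5) and 0.02, 0.01 and 0.01 for Apcdd1, Sp5 and Tcf7 (P0 against E16.5). With the replicate block they were 0 for Apcdd1 and 0 for Tcf7 (P0 against E16.5), and with the 6 libraries alone 0.01 for Apcdd1 (P0 against E16.5). Without E14.5 replicate 1 and E16.5 replicate 1 together they were -0.12 for Sp5 (E14.5 against E13.5) and 0.06 for Lef1 and 0.21 for Tcf7 (E16.5 against E15.5). Over single omissions, E14.5 against E13.5 ranged from -0.22 to 0.08 for Axin2, -0.01 to 0.27 for Nkd1, -0.43 to 0.05 for Nkd2, -0.05 to 0.65 for Notum, -0.12 to 0.49 for Sp5 and -0.48 to 0.07 for Lef1. P0 against E13.5 ranged from -0.34 to 0.15 for Nkd2, and E15.5 against E14.5 from -0.34 to 0.08 for Nkd2. E16.5 against E15.5 ranged from -0.56 to 0.06 for Lef1, -0.62 to 0.04 for Apcdd1 and -0.66 to 0.21 for Tcf7. P0 against E16.5 ranged from -0.26 to 0.15 for Tcf7l2, -0.36 to 0.11 for Axin2, -0.24 to 0.38 for Apcdd1, -0.86 to 0.47 for Sp5, -0.41 to 0.51 for Tcf7 and -0.02 to 0.66 for Notum. The cause of these changes was not tested.

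Steps that did not pass are not shown to be absent. In simulated counts with 3 libraries a stage, 25.4% of 2-fold changes were called for P0 against E13.5. That simulation changed few genes and was summarised for no other step, so its rate does not carry over to the data. Sp5 had the fewest counts of the members, and whether depth limited the calls was not tested for Sp5 or for any other member.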
